A study of Mus musculus with 6 samples.

Results

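Collagen genes were taken from the gene count table as every gene whose symbol is Col, a type number, a and a chain number, with the exception of Col17a1. The rule gave 43 genes of the 43629 gene identifiers in the table, and it used no expression value. They were divided into 11 fibrillar collagens, 9 basement membrane collagens (the 6 type IV chains, Col7a1, Col15a1 and Col18a1) and 23 other collagens. RNA came from epidermal keratinocytes of female pups, 3 control and 3 Dnmt1Δ/Δep, taken at postnatal day 3 and grown for 5 days (according to labels and methods; a figure legend of the study gives a shorter time) in low-calcium medium with serum on dishes coated with collagen and fibronectin. In Dnmt1Δ/Δep animals, both floxed alleles of Dnmt1, the maintenance DNA methyltransferase, are removed by Cre under the Keratin 5 promoter, so that deletion is expected in keratinocytes and not in other cells that grow out of the epidermis. The study counts Cre-free Dnmt1 f/f and Dnmt1 f/+ pups on the same mixed background as controls, and the genotype of each control library is not given. The question addressed by the design is which transcripts differ between keratinocytes with and without DNMT1.

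Collagens are extracellular proteins built from chains that wind into a triple helix. Fibrillar collagens assemble into the tensile fibers of dermis, bone and cartilage, and in skin they are mainly products of fibroblasts. Type IV collagens form the network of the basement membrane under the epidermis, to which keratinocytes contribute, and type VII collagen forms the anchoring fibrils that fix this membrane to the dermis. The other types decorate fibrils, form beaded filaments or short-chain lattices, or span the cell membrane.

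Each group had 3 libraries, with between 53433121 and 115526598 reads on genes. At this depth, 3 counts, the number that a count of 0 allows, corresponded to between 0.0254 and 0.0558 CPM (counts scaled to the normalized library size), a limit that covers counting error only. Libraries with the same replicate number shared a sequencing lane. Dnmt1 fell from between 324 and 394 CPM in the control libraries to between 49.7 and 54.3 CPM in the Dnmt1Δ/Δep libraries (log2 fold change −2.83, adjusted p = 8.1e-05, edgeR). The keratinocyte markers Krt5 and Krt14 were at 17880 ± 1179 and 9438 ± 977.8 CPM in control and at 12655 ± 112 and 6183 ± 463 CPM in Dnmt1Δ/Δep libraries (SD, n = 3), and lay below all controls in all Dnmt1Δ/Δep libraries. Their log2 fold changes of −0.50 and −0.61 passed the adjusted p (0.038 and 0.028, edgeR) but not the size of 1 in either direction that a call also required. None of the 8 keratinocyte markers was called by edgeR (0 higher and 4 lower at an unadjusted p of 0.05, 2 called lower by DESeq2). At that unadjusted p, 15.8% of all genes were higher and 7.79% lower, and the share called lower by DESeq2 was not computed. The differentiation keratin Krt1 was at 53.2, 356 and 530 CPM in control and 66.1, 59.2 and 65.5 CPM in Dnmt1Δ/Δep replicates 1, 2 and 3 (log2 fold change −2.30, adjusted p = 0.085, edgeR), so that control replicate 1 stood apart from the other controls. Krt10 was at 9.63, 32.1 and 29.7 CPM in control and 10.6, 7.10 and 6.30 CPM in Dnmt1Δ/Δep replicates 1, 2 and 3 (log2 fold change −1.58, adjusted p = 0.069, edgeR). Here, too, control replicate 1 stood apart, and Krt10 was not lower in pair 1. Since the libraries are bulk RNA, fewer cells of a type and less RNA per cell cannot be told apart. Each library is taken as 1 mouse, as the labels read.

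Per transcript length, the collagen RNA of these cultures was mainly that of basement membrane collagens. The values in this paragraph are levels in RPKM (counts scaled to exon length and normalized library size), described without a test between genes. Col18a1, whose protein is a basement membrane proteoglycan and the precursor of endostatin, was the most abundant member in both groups, with 114, 99.8 and 82.6 RPKM in control replicates 1, 2 and 3 and 116, 131 and 113 RPKM in Dnmt1Δ/Δep replicates 1, 2 and 3. It made up between 55.4% and 59.3% of the summed collagen RPKM in control and between 46.0% and 56.3% in Dnmt1Δ/Δep libraries. The type IV chains Col4a1 and Col4a2 followed in control with 15.7 ± 5.32 and 15.4 ± 5.32 RPKM (SD, n = 3). Then came Col7a1 (10.2 ± 0.945 RPKM), Col12a1, a collagen found on the surface of fibrils (9.03 ± 1.37 RPKM), and Col8a1, a short-chain network collagen (7.11 ± 2.52 RPKM). In this order, only the step from Col18a1 to Col4a1 exceeded the spread within the control group. In the Dnmt1Δ/Δep libraries Col8a1 stood next to the type IV chains at 17.7 ± 1.05 RPKM, above Col12a1 (10.6 ± 2.07 RPKM) and Col7a1 (9.71 ± 1.42 RPKM). The most abundant fibrillar member in control was Col5a1 at 1.12 ± 0.39 RPKM, and 4 members in all reached 10 RPKM there. By contrast, 21 of the 36 members that passed the filter on low counts were under 1 RPKM in both groups.

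**Figure D1:**
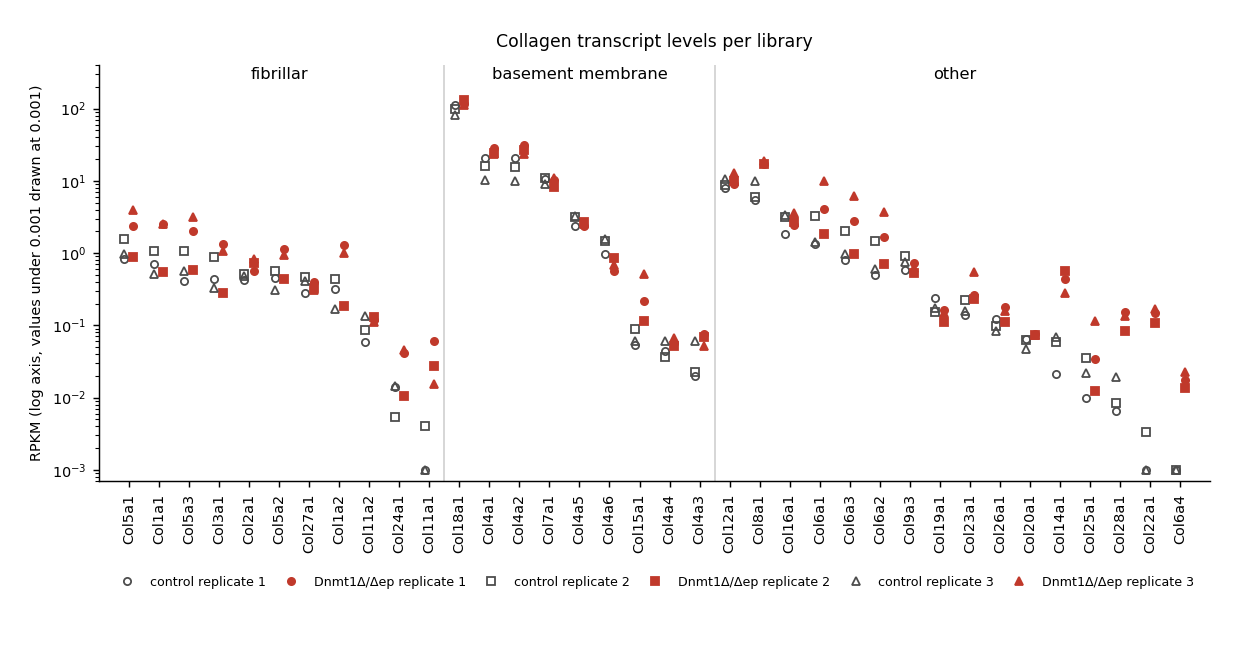
Levels of the 36 tested collagen genes in RPKM (vertical log axis) in every library, ordered within each class by the control mean; open symbols are control and filled symbols Dnmt1Δ/Δep libraries, with 1 shape for each replicate number. Col18a1 lies highest, between 82.6 and 131 RPKM, and most fibrillar genes lie near or under 1 RPKM.

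Deletion of Dnmt1 was accompanied by upregulation of 6 collagen genes, Col8a1, Col14a1, Col22a1, Col28a1, Col6a4 and Col11a1, of which 5 belong to the other collagens and 1, Col11a1, is fibrillar. A call required a log2 fold change of 1 or more in either direction together with an adjusted p no higher than 0.05 in edgeR's quasi-likelihood test, adjusted by Benjamini-Hochberg over all 16829 genes tested. The 6 of 36 tested members correspond to 16.7%, against 6.03% of all tested genes upregulated. Col22a1, Col28a1, Col6a4 and Col11a1, with at most 5 counts in a control library, passed the filter on low counts only through their Dnmt1Δ/Δep libraries. The 7 members too scarce in both groups to be tested were outside the 36. The share is thus a description and no test of the family. The same 6 were called with a block for the replicate pairs (6.97% of all genes), and DESeq2 called them and Col15a1 (6.84% of all genes). At an unadjusted p of 0.05, 13 members were higher and 1 was lower, against 15.8% and 7.79% of all genes. No collagen gene was downregulated (0 by edgeR and 0 by DESeq2), against 0.392% of all genes. Without Dnmt1Δ/Δep replicate 2, whose fibrillar collagens stood apart as described further on, 5 members were upregulated, but only Col14a1, Col22a1 and Col28a1 of the 6 were among them, beside Col1a1 and Col15a1. Without control replicate 2 or without Dnmt1Δ/Δep replicate 1 these 3 alone were upregulated. Of the 6, only Col8a1 was above 1 RPKM in either group, so the others were changes in scarce transcripts.

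Col8a1 (ENSMUSG00000068196, chromosome 16, 57624258 to 57754737, minus strand), which encodes a chain of the hexagonal lattice known from Descemet's membrane and blood vessel walls, was at 42.3, 46.4 and 78.3 CPM in control replicates 1, 2 and 3 and at 135, 133 and 148 CPM in the Dnmt1Δ/Δep replicates. All Dnmt1Δ/Δep libraries lay above all control libraries, and the control group was the more spread. The log2 fold change was 1.32 (standard error 0.23, adjusted p = 0.014, edgeR). The call was lost without control replicate 2 or without Dnmt1Δ/Δep replicate 1 or 2, with adjusted p values up to 0.064 and log2 fold changes of at least 1.15. Its partner chain Col8a2 was too scarce to be tested, with 0, 3 and 1 counts in control and 1, 1 and 11 in Dnmt1Δ/Δep libraries. The related Col10a1 of hypertrophic cartilage had 0 counts in all 6 libraries.

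Among the collagens that attach to fibrils through interrupted helices (FACIT), Col14a1 and Col22a1 were upregulated. Col14a1 (ENSMUSG00000022371, chromosome 15, 55307750 to 55520803, plus strand), which encodes undulin, was at 0.148, 0.410 and 0.484 CPM in control and at 3.02, 4.0 and 1.96 CPM in Dnmt1Δ/Δep replicates 1, 2 and 3. Its log2 fold change was 3.13 (standard error 0.48, adjusted p = 0.0089, edgeR), and it stayed called whichever library was left out. Col22a1 (ENSMUSG00000079022, chromosome 15, 71795795 to 72034227, minus strand), known from tissue junctions such as that of muscle and tendon, had 0, 3 and 0 counts in the control libraries and 82, 86 and 182 after Dnmt1 deletion. The ratio of the summed counts, scaled by library size, was 109 with an exact 95% counting interval from 36.8 to 529 (adjusted p = 0.0024, edgeR). All 3 control counts came from replicate 2, and the interval covers counting error only. Col22a1 was likewise called in each of the 6 tests that left out a library, with log2 fold changes from 5.98 to 9.75. Near-absence in control and a low but even level in Dnmt1Δ/Δep cells, between 0.99 and 1.54 CPM, was thus the pattern of Col22a1.

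The FACIT members that were already abundant did not pass. Col12a1 was at 119.6, 133 and 160.5 CPM in control and 136, 152 and 197 CPM in Dnmt1Δ/Δep libraries, higher in all 3 replicate pairs by between 0.18 and 0.29 on the log2 scale, with overlapping groups (adjusted p = 0.48, edgeR). Col16a1 was at 18.8 ± 5.70 and 19.5 ± 3.97 CPM (SD, n = 3). Col9a3, the third chain of the cartilage collagen type IX, was at 2.88 ± 0.67 CPM in control and at 2.42 ± 0.38 CPM in Dnmt1Δ/Δep libraries, whereas its partners Col9a1 and Col9a2 had at most 3 counts in any library and were not tested. About 6.07% of the exon bases of Col9a3 are shared with Tcfl5 on the opposite strand, and whether counting used the strand is not given in the sources used here. Col19a1 was lower in all 3 pairs (1.31 ± 0.30 against 0.97 ± 0.18 CPM, adjusted p = 0.42, edgeR), while Col20a1 was above all controls in all Dnmt1Δ/Δep libraries but at only 0.30 ± 0.047 and 0.38 ± 0.0066 CPM (adjusted p = 0.59).

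Col28a1 (ENSMUSG00000068794, chromosome 6, 7997808 to 8192617, minus strand), a collagen with von Willebrand factor A domains described in peripheral nerve, had 3, 4 and 5 counts in the control libraries and 45, 35 and 77 after Dnmt1 deletion. The groups were far apart, and the call, at a log2 fold change of 3.52 with a standard error of 0.52 (adjusted p = 0.0075, edgeR), held without any single library. Col6a4 (ENSMUSG00000032572, chromosome 9, 105989454 to 106096783, minus strand), a type VI chain, had 0 counts in all 3 control libraries and 9, 10 and 23 in those of Dnmt1Δ/Δep cells. Against 3 counts over the control group, it was at least 13.0-fold higher (adjusted p = 0.016, edgeR). The call of Col6a4 was lost without control replicate 2 or without any of the Dnmt1Δ/Δep replicates, with adjusted p values up to 0.070. Of its exon bases, 3.39% lie opposite to Gm47575. The neighboring type VI chains Col6a5 and Col6a6, with at most 3 counts in a library, were not tested.

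Col11a1 (ENSMUSG00000027966, chromosome 3, 114030540 to 114220718, plus strand), a chain of the cartilage collagen type XI that sets the diameter of fibrils, had 1, 5 and 0 counts in control and 46, 30 and 23 counts in Dnmt1Δ/Δep replicates 1, 2 and 3. All Dnmt1Δ/Δep libraries exceeded all controls, at levels that differed among themselves from 0.195 to 0.772 CPM. The log2 fold change was 4.10 (standard error 0.89, adjusted p = 0.032, edgeR). This was the least stable call: it held only without Dnmt1Δ/Δep replicate 3, and each other omission raised the adjusted p, at most to 0.099. Col11a2 and Col2a1, which share the type XI trimer with it, were at 0.64 ± 0.27 and 4.37 ± 0.37 CPM in control and at 0.83 ± 0.066 and 6.57 ± 1.33 CPM in Dnmt1Δ/Δep libraries (SD, n = 3), with adjusted p values of 0.59 and 0.12 (edgeR). Col2a1 did not overlap between the groups. Of 7 chondrocyte markers, only Matn3 and Sox5 passed the filter on low counts and none was called (0 by edgeR and by DESeq2, 1 higher at an unadjusted p of 0.05). The summed level of these markers ranged from 0.666 to 2.70 CPM in control and from 1.81 to 3.42 CPM in Dnmt1Δ/Δep libraries, with Cnmd and Hapln1 at 0 counts in control. The part of such cells in the values of Col11a1 and Col2a1 was not tested.

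**Figure D2:**
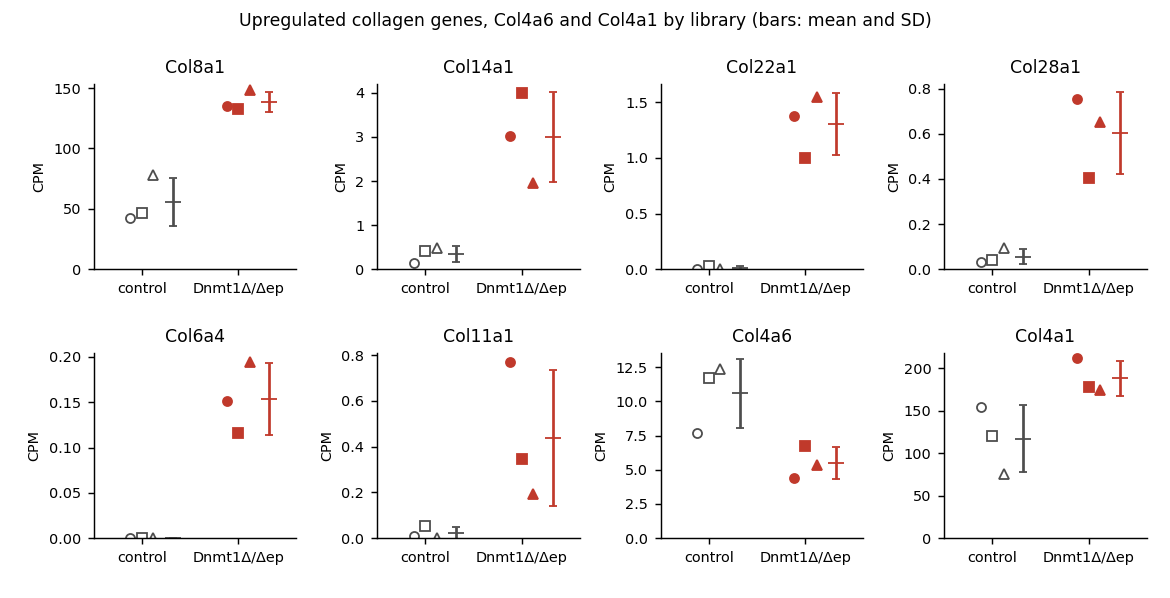
Levels in CPM (vertical axes from 0) of the 6 upregulated collagen genes and of Col4a6 and Col4a1 in each control and Dnmt1Δ/Δep library; circles, squares and triangles are replicates 1, 2 and 3, and bars give the mean and SD. In all 8 panels the groups do not overlap; Col4a6 is the only one lower in Dnmt1Δ/Δep libraries, and Col4a6 and Col4a1 were not called.

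As DNMT1 maintains methylation at CpG dinucleotides, the 250 bases before the transcription start were examined for CpG, for the 34 members with a promoter in the RefSeq table (build GRCm38.p6). The sequences of the 4 upregulated members found there and of Col4a6, the only tested member below control in all Dnmt1Δ/Δep libraries, are given 5′ to 3′ on the strand of the gene, with every CpG in capitals, to show how differently this dinucleotide is distributed among them. For Col6a4, only the 158 bases upstream of the GENCODE start are printed. For some members the RefSeq start lay away from the GENCODE start, by up to 49344 bases at Col25a1.
Col8a1, chr16:57754738-57754987, minus strand: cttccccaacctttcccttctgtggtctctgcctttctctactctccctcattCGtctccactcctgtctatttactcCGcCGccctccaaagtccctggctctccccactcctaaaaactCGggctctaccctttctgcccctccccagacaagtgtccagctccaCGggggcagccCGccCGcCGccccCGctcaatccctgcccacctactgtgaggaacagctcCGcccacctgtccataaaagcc
Col28a1, chr6:8192618-8192867, minus strand: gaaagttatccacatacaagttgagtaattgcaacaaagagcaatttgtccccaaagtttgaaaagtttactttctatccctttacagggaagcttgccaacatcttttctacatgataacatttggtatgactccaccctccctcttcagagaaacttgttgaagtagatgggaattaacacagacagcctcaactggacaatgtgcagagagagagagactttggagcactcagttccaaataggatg
Col6a4, chr9:106096784-106096941, minus strand: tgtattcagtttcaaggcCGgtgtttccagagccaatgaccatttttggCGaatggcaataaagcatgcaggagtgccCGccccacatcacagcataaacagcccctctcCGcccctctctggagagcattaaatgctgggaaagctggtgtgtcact
Col11a1, chr3:114030290-114030539, plus strand: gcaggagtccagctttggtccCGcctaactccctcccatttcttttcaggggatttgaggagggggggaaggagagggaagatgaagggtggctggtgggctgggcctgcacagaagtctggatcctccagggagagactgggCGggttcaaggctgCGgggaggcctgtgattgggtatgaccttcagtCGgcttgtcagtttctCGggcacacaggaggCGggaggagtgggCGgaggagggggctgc
Col4a6, chrX:141474077-141474326, minus strand: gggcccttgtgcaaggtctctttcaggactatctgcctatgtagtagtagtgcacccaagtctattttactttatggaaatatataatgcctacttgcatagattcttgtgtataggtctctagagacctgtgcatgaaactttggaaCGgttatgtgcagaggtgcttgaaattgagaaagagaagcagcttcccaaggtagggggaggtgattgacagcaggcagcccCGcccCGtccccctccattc
The motif searched was CG, which reads the same on both strands. Col28a1 had 0 CpG in its window, Col6a4 had 5, Col11a1 had 7 and Col8a1 had 10, while Col4a6 had 3. Of the CpG of Col6a4, 4 are in the printed part, and the rest of its window reaches 92 bases past the GENCODE start. The median over the 27018 promoters of the table was 5 CpG, and 50.1% of them had 5 or fewer. The promoters of the 4 upregulated members had a median of 6 CpG and those of the 23 other tested members with a promoter had a median of 10. The median was 15 CpG over all 11600 tested genes with a promoter and 6 CpG over the 700 upregulated genes among them. Of these tested genes, 18.2% had 5 or fewer CpG, compared with 48.4% of the 700 upregulated genes. The corresponding counts for collagens were 2 of 4 upregulated and 6 of 23 other members, too few to set them apart from the other genes. The highest CpG numbers were found at Col4a1 (31), Col5a1 (28) and Col4a2 (26), none of which was called, and the methylation of these windows was not measured in these libraries.

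Basement membrane collagens were the most abundant class and had the smallest median fold change. No member was called upregulated (0 by edgeR, 1 by DESeq2, 3 higher at an unadjusted p of 0.05) or downregulated (0 by both tools, 1 lower at an unadjusted p of 0.05). At that unadjusted p, 15.8% of all genes were higher and 7.79% were lower. Over the 9 genes the median of the log2 fold changes was 0.32, compared with 1.08 for the 11 tested fibrillar genes, 1.25 for the 16 tested other collagens and −0.00 for all genes tested. Without Dnmt1Δ/Δep replicate 3 the medians were 0.71 for fibrillar and 0.51 for other collagens, against 0.32 for basement membrane collagens, and no test was made of these medians. Col6a4, which has no finite fold, lies above the medians with its fitted value as with its bound. The fibrillar and other medians include Col11a1, Col22a1, Col28a1 and Col6a4, which passed the filter on low counts only through the Dnmt1Δ/Δep libraries. The summed level of the basement membrane class was 1220, 1071 and 851 CPM in control replicates 1, 2 and 3 and 1362, 1380 and 1267 CPM in the Dnmt1Δ/Δep replicates. Every Dnmt1Δ/Δep library was thus above every control, with log2 differences of 0.16, 0.37 and 0.57 in pairs 1, 2 and 3.

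Within type IV collagen the fold changes had opposite signs, although no member was called. Col4a1 was at 155, 121 and 75.8 CPM in control and at 212, 178 and 175 CPM in Dnmt1Δ/Δep libraries, and Col4a2 was at 136, 103 and 65.8 CPM and at 206, 175 and 157 CPM. These are the chains of the network common to most basement membranes, and for both all Dnmt1Δ/Δep libraries lay above all controls. The log2 fold changes were 0.68 (standard error 0.24, adjusted p = 0.14) and 0.82 (standard error 0.25, adjusted p = 0.091) with edgeR, and with a block for the replicate pairs they were 0.74 (adjusted p = 0.040) and 0.87 (adjusted p = 0.019), below the required size of 1 in both cases. Without control replicate 1, Col4a2 was called at 1.08. Col4a1 and Col4a2 lie head to head on chromosome 8 with 21 bases between their starts, and the ratio of their RPKM values was 1.01, 1.04 and 1.02 in control and 0.910, 0.904 and 0.985 in Dnmt1Δ/Δep libraries, close to 1 but without overlap.

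Col4a6 (ENSMUSG00000031273, X chromosome, 141165403 to 141474076, minus strand), a chain of the skin and smooth muscle basement membrane, was at 7.69, 11.7 and 12.3 CPM in control and at 4.43, 6.75 and 5.36 CPM in Dnmt1Δ/Δep replicates 1, 2 and 3. It was the only tested member with all Dnmt1Δ/Δep libraries below all controls, a pattern shown by 11.7% of all genes. The log2 fold change was −0.94 (standard error 0.24, adjusted p = 0.054, edgeR), and with the replicate block it was −0.93 (adjusted p = 0.018), short of the size required. Without control replicate 1 it was called, at −1.16. Its head-to-head neighbor and partner chain Col4a5, 1309 bases away between starts, was at 16.1, 21.4 and 22.1 CPM in control and 15.9, 18.3 and 17.1 CPM in Dnmt1Δ/Δep libraries, with overlapping groups (log2 fold change −0.22, adjusted p = 0.46, edgeR). The RPKM ratio of Col4a5 to Col4a6 was 2.49, 2.17 and 2.12 in control and 4.27, 3.22 and 3.78 in Dnmt1Δ/Δep libraries, without overlap. The chains of the kidney glomerulus, Col4a3 and Col4a4, with 72 bases between their starts, were scarce at 0.34 ± 0.22 and 0.50 ± 0.13 CPM in control and at 0.66 ± 0.12 and 0.62 ± 0.076 CPM in Dnmt1Δ/Δep libraries (SD, n = 3; adjusted p = 0.28 and 0.63, edgeR). Their RPKM ratio ranged from 0.460 to 1.33 and followed no group.

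Col18a1 was at 797, 700 and 580 CPM in control and 815, 917 and 796 CPM in Dnmt1Δ/Δep libraries, with overlapping groups and a log2 fold change of 0.28 (adjusted p = 0.27, edgeR). Its relative Col15a1, another carrier of an endostatin-like domain, was at 0.338, 0.564 and 0.391 CPM in control and 1.38, 0.729 and 3.29 CPM in Dnmt1Δ/Δep libraries. All Dnmt1Δ/Δep libraries were above the controls, with the smallest distance in pair 2. The log2 fold change of Col15a1 was 2.06 (standard error 0.57, adjusted p = 0.066, edgeR), and the gene was called by DESeq2 (adjusted p = 0.0023), by edgeR without the filter on low counts and without Dnmt1Δ/Δep replicate 2. Col7a1, the anchoring fibril collagen, was at 107, 113 and 93.7 CPM in control and 105, 83.4 and 111 CPM in Dnmt1Δ/Δep libraries, which overlapped in part, with Dnmt1Δ/Δep replicate 2 below all controls (log2 fold change −0.07, standard error 0.13, adjusted p = 0.85, edgeR).

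**Figure D3:**
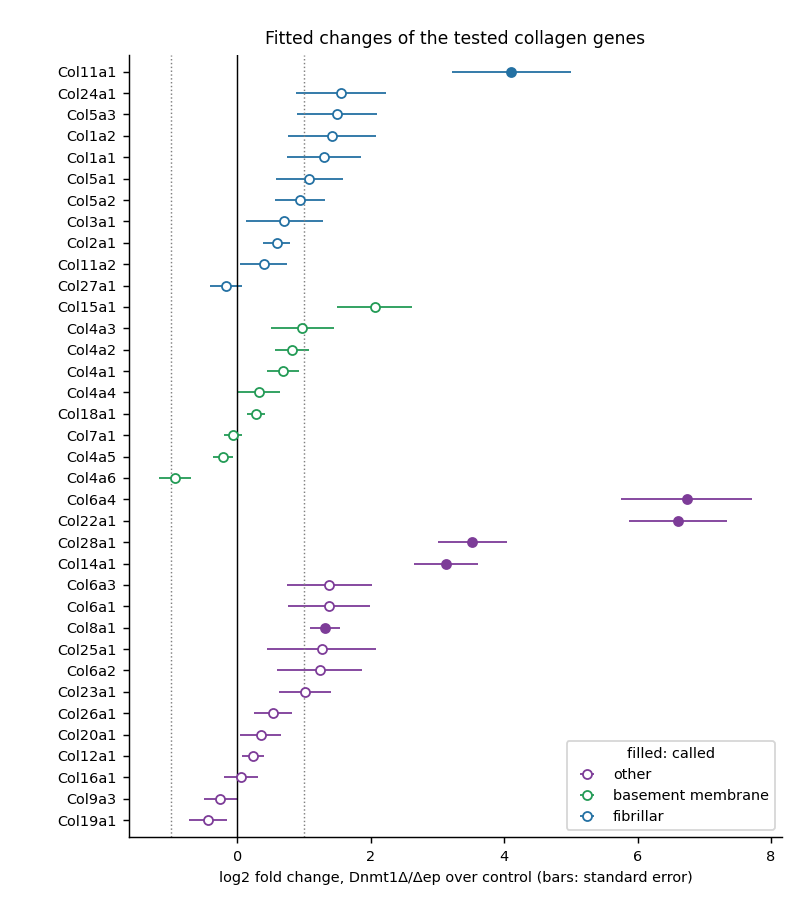
Fitted log2 fold changes (Dnmt1Δ/Δep over control) of the 36 tested collagen genes with their standard errors, by class; filled points were called and dotted lines mark the size of 1. Fitted values of Col6a4 and Col22a1 depend on near-zero controls and are no measure of size, and Col4a6 at −0.94 is the lowest.

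For the collagens of dermal fibrils and the main type VI chains, the sign of the difference depended on the replicate pair. This grouping of types I, III and V with type VI was made after the values were seen. Summed fibrillar collagens were at 35.1, 58.5 and 34.6 CPM in control replicates 1, 2 and 3 and at 103, 36.9 and 116 CPM in the Dnmt1Δ/Δep replicates. They were higher in Dnmt1Δ/Δep cells in pairs 1 and 3, by 1.55 and 1.75 on the log2 scale, and lower in pair 2, where the difference was −0.67. These signs were shared by Col1a1, Col1a2, Col3a1, Col5a1, Col5a2 and Col5a3, the chains of the dermal fibrils, whose sum was 27.0, 47.0 and 23.7 CPM in control and 90.5, 24.4 and 103 CPM in Dnmt1Δ/Δep libraries. Col1a1 was at 4.59, 6.98 and 3.37 CPM in control and 16.7, 3.63 and 16.4 CPM in Dnmt1Δ/Δep libraries, and its partner Col1a2 at 3.96, 5.45 and 2.08 CPM and 16.04, 2.31 and 12.5 CPM. The ratio of Col1a1 to Col1a2 in RPKM stayed between 1.97 and 3.06. Col5a1 and Col5a2, chains of the collagen that nucleates type I fibrils, were at 7.07, 13.3 and 8.25 CPM and at 4.29, 5.39 and 2.94 CPM in control replicates 1, 2 and 3. In the Dnmt1Δ/Δep replicates they were at 20.01, 7.41 and 33.2 CPM and at 10.9, 4.24 and 9.14 CPM. Their RPKM ratio varied more than that of the type I chains, between 1.86 and 4.10. None of these 6 genes was called (0 by edgeR and 0 by DESeq2, 2 higher at an unadjusted p of 0.05, against 15.8% of all genes). Their log2 fold changes lay between 0.71 for Col3a1 and 1.5 for Col5a3, and all 6 overlapped between the groups. Without Dnmt1Δ/Δep replicate 2, Col1a1 was called (adjusted p = 0.036, edgeR).

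The beaded filament chains Col6a1, Col6a2 and Col6a3 followed the same libraries. Col6a1 was at 5.90, 14.2 and 6.16 CPM in control and 17.6, 7.97 and 42.8 CPM in Dnmt1Δ/Δep replicates 1, 2 and 3. Col6a2 was at 4.10, 12.3 and 5.03 CPM and at 13.8, 5.83 and 30.7 CPM, and Col6a3 at 9.56, 24.1 and 11.5 CPM and at 33.1, 11.6 and 72.6 CPM. All 3 were highest in Dnmt1Δ/Δep replicate 3. The sum of the 3 chains differed by 1.72 and 2.69 on the log2 scale in pairs 1 and 3 and by −0.99 in pair 2, and none was called (0 by edgeR, 0 by DESeq2 and 0 at an unadjusted p of 0.05), with adjusted p values between 0.23 and 0.30. Their proportions were steady, with a Col6a1 to Col6a2 ratio between 2.20 and 2.73 and a Col6a1 to Col6a3 ratio between 1.45 and 1.87 in RPKM. The remaining fibrillar genes did not share this pattern. Col27a1, expressed in cartilage, was at 5.05 ± 1.30 and 4.49 ± 0.55 CPM (adjusted p = 0.75, edgeR), and Col24a1, expressed in bone, was at 0.086 ± 0.039 and 0.25 ± 0.15 CPM and higher in all 3 pairs (adjusted p = 0.22, edgeR).

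Of the 12 fibroblast markers, 7 had the same signs by pair as these collagens. The other 5 did not: Thy1 and Mfap5 were higher in all pairs, Fbln1 was lower in all pairs, and Dcn and Postn were higher in pair 1 alone. Prrx1, a mesenchymal transcription factor, was at 7.06, 9.75 and 3.91 CPM in control and 30.8, 5.85 and 35.2 CPM in Dnmt1Δ/Δep libraries, and Pdgfra, a growth factor receptor of fibroblasts, at 2.52, 3.21 and 1.54 CPM and 6.71, 2.19 and 8.63 CPM. Both were lower in Dnmt1Δ/Δep cells in pair 2 and higher in the other pairs, and both were chosen after their values were seen. Over the 12 fibroblast markers, all of which passed the filter, the median log2 difference was 1.44 in pair 1, −0.50 in pair 2 and 1.77 in pair 3. Their summed level ranged from 69.2 to 89.8 CPM in control and from 68.8 to 119 CPM in Dnmt1Δ/Δep libraries, with Fbln1 alone at 56.3 ± 5.93 and 47.0 ± 7.04 CPM and no marker at 0 counts in all controls. None of the markers was called (0 by edgeR and by DESeq2, 6 higher at an unadjusted p of 0.05, against 15.8% of all genes). Mfap5 alone was called with the replicate block (adjusted p = 0.032), with which 6.97% of all genes were upregulated. The part of fibroblasts in the values of the fibrillar and type VI collagens was not tested.

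**Figure D4:**
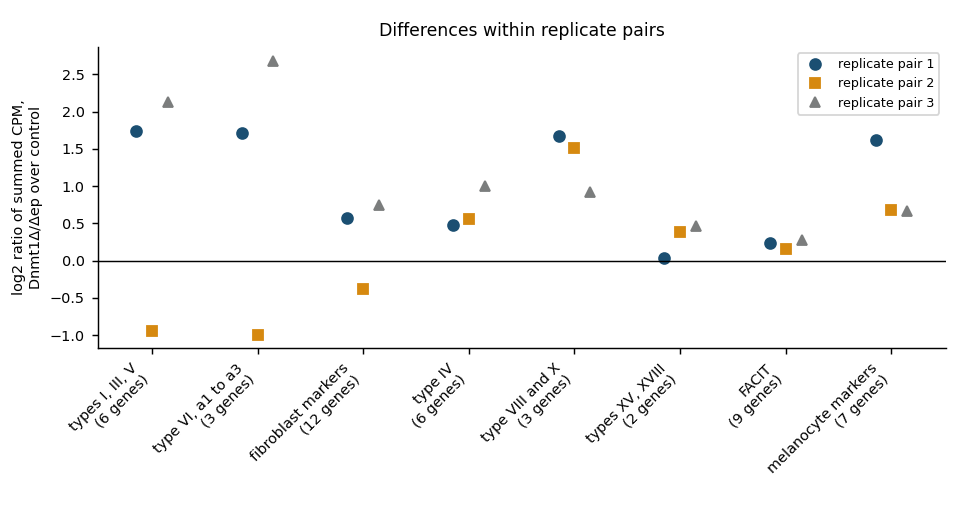
Log2 ratio of summed CPM, Dnmt1Δ/Δep over control, within each replicate pair (1 point a pair, no error bar) for groups of collagen genes and for fibroblast and melanocyte markers. Types I, III and V, the chains Col6a1 to Col6a3 and fibroblast markers are below 0 in pair 2 and above 0 in pairs 1 and 3, whereas the other groups are above 0 in all pairs.

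The remaining members were scarce. Of the transmembrane collagens, Col23a1 was at 0.793, 1.27 and 0.912 CPM in control and 1.53, 1.32 and 3.15 CPM in Dnmt1Δ/Δep libraries, just without overlap (log2 fold change 1.01, adjusted p = 0.17, edgeR). Col25a1, which is associated with motor neurons and amyloid plaques, was at 0.127, 0.462 and 0.279 CPM and 0.436, 0.162 and 1.47 CPM and was lower in Dnmt1Δ/Δep cells in pair 2 only. Col13a1 had at most 1 count in a library and was not tested. Col26a1 was at 0.83 ± 0.16 CPM in control and at 1.21 ± 0.27 CPM in Dnmt1Δ/Δep libraries (SD, n = 3; adjusted p = 0.32, edgeR) and was higher in all 3 pairs. Over the whole family, 36 members were tested, 7 were not tested, and 42 had a count in any library. All Dnmt1Δ/Δep libraries were above all controls for 12 of the 36 and below for 1, against 18.2% and 11.7% of all genes. The 12 include Col11a1, Col22a1, Col28a1 and Col6a4, which passed the filter on low counts only through the Dnmt1Δ/Δep libraries. The direction was the same in all pairs for 17 higher and 3 lower members, against 27.6% and 25.4% of all genes, and mixed for 16.

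Genes that process or bind collagen were examined by lists written by hand. Of 17 tested genes for the modification and folding of collagen chains, none was called (0 by edgeR and by DESeq2, 6 higher and 0 lower at an unadjusted p of 0.05), and the median log2 fold change was 0.20. The most abundant, P4hb, a subunit of prolyl hydroxylase that also serves as a general protein disulfide isomerase, was at 857, 881 and 854.5 CPM in control and 1258, 1355 and 1171 CPM in Dnmt1Δ/Δep libraries, a log2 fold change of 0.55 that passed the adjusted p (0.016, edgeR) but not the required size. Among 12 tested genes of propeptide removal and crosslinking, 1 was upregulated and none downregulated, whereas DESeq2 called 5. Of all tested genes, 6.03% were upregulated with edgeR and 6.84% with DESeq2, and 15.8% were higher at an unadjusted p of 0.05. The gene called by edgeR was Pcolce, the enhancer of the C-proteinase of procollagens, at 1.12, 1.36 and 1.04 CPM in control and 5.55, 2.57 and 5.18 CPM in Dnmt1Δ/Δep libraries (log2 fold change 1.91, standard error 0.33, adjusted p = 0.013, edgeR). It was not called without Dnmt1Δ/Δep replicate 1.

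Among 7 tested collagen receptors, Ddr2, a receptor tyrosine kinase for fibrillar collagen, was upregulated, and none was downregulated, against 6.03% and 0.392% of all tested genes. Ddr2 was at 3.10, 5.36 and 4.36 CPM in control and 37.7, 26.8 and 46.4 CPM in Dnmt1Δ/Δep replicates 1, 2 and 3 (log2 fold change 3.12, standard error 0.28, adjusted p = 0.0010, edgeR). Unlike the chains of types I, III and V, Ddr2 was several-fold higher in pair 2 as well, and the list had 1 called gene whichever library was left out. The related receptor Ddr1, which is typical of epithelia, was at 271 and 191 CPM on average (adjusted p = 0.20, edgeR). None of 11 tested genes of collagen degradation was called (0 by edgeR, 2 by DESeq2, 4 higher at an unadjusted p of 0.05), with the protease inhibitor Timp3 the most abundant at 541 ± 46.0 and 571 ± 130 CPM (SD, n = 3). With the replicate block, 2 of them, Mmp10 and Timp1, were called (adjusted p = 0.037 and 0.043). Of all tested genes, 6.97% were upregulated with the block and 6.84% with DESeq2, and 15.8% were higher at an unadjusted p of 0.05.

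Of 15 laminins and other basement membrane proteins, 3 were upregulated and none downregulated, with a list median of 0.48, while 6.03% of all tested genes were upregulated and 0.392% downregulated. Nid1, which links laminin to type IV collagen, was at 45.4, 24.5 and 19.8 CPM in control and 113, 69.9 and 106 CPM in Dnmt1Δ/Δep libraries (log2 fold change 1.68, standard error 0.33, adjusted p = 0.022, edgeR). Its relative Nid2 was at 0.48 ± 0.054 and 1.38 ± 0.59 CPM (log2 fold change 1.52, adjusted p = 0.043, and 0.052 with the replicate block, which called 2 genes of the list), and Lama1, a laminin chain of the early embryo, at 0.45 ± 0.036 and 1.45 ± 0.40 CPM (log2 fold change 1.70, adjusted p = 0.014). None of the list was called without control replicate 2, and 1 was called without Dnmt1Δ/Δep replicate 1 or 3.

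Markers of other cell types that make collagen were also measured. Of 5 tested endothelial markers, 3 were upregulated, compared with 6.03% of all tested genes: Cdh5 (0.26 ± 0.26 to 4.62 ± 1.10 CPM, adjusted p = 0.0097), Pecam1 (1.92 ± 0.64 to 7.16 ± 1.34 CPM, adjusted p = 0.0075) and Flt1 (1.73 ± 0.44 to 16.3 ± 4.10 CPM, adjusted p = 9.1e-04; SD, n = 3, edgeR). Kdr, a receptor for vascular endothelial growth factor, was at 13.3, 4.37 and 2.75 CPM in control and 6.39, 3.09 and 8.87 CPM in Dnmt1Δ/Δep replicates 1, 2 and 3 (log2 fold change −0.16, standard error 0.61, adjusted p = 0.93, edgeR). Control replicate 1 stood above all other libraries, and Kdr was lower in Dnmt1Δ/Δep cells in pairs 1 and 2 and higher in pair 3. Tek did not pass the test either (0.81 and 1.20 CPM on average, adjusted p = 0.41, edgeR). The summed level of the 6 genes listed ranged from 6.72 to 19.6 CPM in control and from 32.9 to 39.5 CPM in Dnmt1Δ/Δep libraries. Among smooth muscle and pericyte markers, 1 of 4 tested, Acta2, was upregulated against the same 6.03% of all genes (20.7 ± 9.01 to 88.4 ± 52.4 CPM, adjusted p = 0.033, edgeR), and summed levels, to which Acta2 contributed most in Dnmt1Δ/Δep libraries, were 20.9 to 63.3 CPM and 67.8 to 177 CPM. Tagln, an actin-binding protein of smooth muscle, was at 31.98, 10.8 and 7.0 CPM in control and 18.5, 27.4 and 13.6 CPM in Dnmt1Δ/Δep replicates 1, 2 and 3 (log2 fold change 0.25, standard error 0.54, adjusted p = 0.85, edgeR). Control replicate 1 was the highest library, and Tagln was higher in Dnmt1Δ/Δep cells in pairs 2 and 3, by 1.33 and 0.95 on the log2 scale, and lower in pair 1 (−0.79). Cnn1 and Myh11 were scarce, at 0.25 ± 0.13 and 0.10 ± 0.026 CPM in control and 0.18 ± 0.076 and 0.21 ± 0.040 CPM in Dnmt1Δ/Δep libraries (SD, n = 3; adjusted p = 0.67 and 0.18, edgeR). No gene of this list was called without control replicate 2 or 3 or without Dnmt1Δ/Δep replicate 1 or 2. Col8a1, Col15a1 and Col18a1 are also products of vascular cells, and the part of these cells in their values was not tested.

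Melanocyte markers summed to 224, 517.5 and 573 CPM in control replicates 1, 2 and 3 and to 688, 834 and 912 CPM in the Dnmt1Δ/Δep replicates. Control replicate 1 was the lowest, and the log2 difference was 1.62 in pair 1 and 0.69 and 0.67 in pairs 2 and 3. None of the 7 markers was called (0 by edgeR, 1 by DESeq2, 4 higher at an unadjusted p of 0.05), whereas the replicate block called 2, Tyrp1 and Dct (adjusted p = 0.026 and 0.027). Of all tested genes, 15.8% were higher at this unadjusted p, and 6.97% were upregulated with the block and 6.84% with DESeq2. None of 5 Schwann cell markers was called (0 by edgeR, 1 by DESeq2, 4 higher at an unadjusted p of 0.05), and the block called S100b alone (adjusted p = 0.046). Their summed level was 5.38, 12.3 and 13.3 CPM in control replicates 1, 2 and 3 and 17.7, 20.2 and 20.3 CPM in the Dnmt1Δ/Δep replicates, beside which Col28a1 was upregulated as given above. Of 6 macrophage markers, 3 were tested and 2, Csf1r and Itgam, were upregulated, compared with 6.03% of all tested genes (adjusted p = 0.027 and 0.047, edgeR), with sums of 0.275 to 0.987 CPM and 2.50 to 4.40 CPM. Neither was called without Dnmt1Δ/Δep replicate 1 or 3, and 1 gene of the list was called without control replicate 1 or 2 or Dnmt1Δ/Δep replicate 2. With the block, Itgam alone was called (adjusted p = 0.020), although 68.7% of its exon bases are shared with Gm49368 on the same strand. Cd74, also tested, was not called (0.043 and 0.34 CPM on average, adjusted p = 0.14, edgeR). Ptprc, Adgre1 and Lyz2 were too scarce to be tested. In control replicates 1, 2 and 3, Ptprc had 0, 0 and 2 counts, Adgre1 0, 0 and 0, and Lyz2 1, 0 and 1. In the Dnmt1Δ/Δep replicates, Ptprc had 12, 1 and 0 counts, Adgre1 0, 0 and 1, and Lyz2 6, 0 and 2. The part of melanocytes, Schwann cells or macrophages in the collagen values was not tested.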

How the data were processed

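Poly(A)-selected RNA of 3 control and 3 Dnmt1Δ/Δep keratinocyte cultures was compared. According to the methods and the submitters' processing notes, the authors removed adapters with cutadapt and ribosomal reads with Bowtie2, aligned to GRCm38 with STAR and counted unique reads per gene with HTSeq in union mode. The deposited values are raw counts. The paper's text names a human build for this step, and gene positions and exon lengths here are those of GENCODE on GRCm38. Of the 43629 identifiers, 42462 (97.3%) matched a symbol. Entries that name no gene (8.73% to 12.9% of counted reads) stayed out of all totals. Further deposited files were not used: repeat counts, and the authors' comparisons, with normalized means, fold changes and p-values.

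The test was edgeR's quasi-likelihood F test (edgeR 4.0.16, R 4.3.3) after TMM normalization (factors 0.980 to 1.02) and filterByExpr (minimum counts 10 and 15), without a block, and p-values were adjusted over the 16829 genes tested. CPM and RPKM use the TMM-scaled library size. Alternatives were DESeq2 1.42.0, DESeq2 size factors in edgeR, no filter, a minimum of 1 RPKM, a replicate block and omission of each library. DESeq2 for the lists was added after seeing the data. Replicate numbers were taken to pair the libraries, because same-numbered libraries share a lane in the file headers and their deviations correlated across genes (r = 0.43, 0.28 and 0.30). On simulated data for this comparison (16829 genes, log2 change 2), 192 of the 200 genes altered were found, and 16 calls were false. The genes altered all had means above 1 CPM. Recovery of scarcer genes, such as Col22a1, Col28a1, Col6a4 and Col11a1, was therefore not examined. Collagen genes, classes and lists were chosen with earlier results of these data known. Every tested member is described, in full where called, most abundant or scarcest in its class, or part of a head-to-head pair or shared trimer. Of the lists, called genes or the most abundant are named. Prrx1, Pdgfra, Ddr1, the keratins and uncalled vascular and macrophage markers were named after their values were seen. Promoter windows came from a RefSeq table.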

Additional observations from a re-analysis of the deposited data

How the results depend on the processing

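The number of upregulated collagen genes was 6 with DESeq2 size factors and with the replicate block (6.97% of all genes upregulated there), 7 with DESeq2 or without the filter, and 1 with a minimum of 1 RPKM, which 15 members reached in either group. It ranged from 3 to 6 when a library was left out, and downregulated members from 0 to 1, with Col4a6 called without control replicate 1, where Col4a2 was called in place of Col11a1. In these tests upregulated fibrillar members ranged from 0 to 1, basement membrane members from 0 to 1 and other collagens from 3 to 5, and 1 basement membrane member, Col15a1, was called without the filter. Without a library, the median log2 fold change ranged from 0.29 to 0.45 for basement membrane, 0.71 to 1.43 for fibrillar and 0.51 to 1.53 for other collagens. The basement membrane median was 0.50 for the type IV chains alone. Col16a1 changed sign when control replicate 1 (−0.17) or Dnmt1Δ/Δep replicate 3 (−0.12) was omitted, in a range from −0.17 to 0.22, and the cause was not tested.

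The replicate block changed no call of a collagen gene. It moved called genes from 0 to 2 for degradation, 0 to 1 for fibroblast, 0 to 2 for melanocyte, 0 to 1 for Schwann cell and 2 to 1 for macrophage markers, and from 3 to 2 for laminins and related proteins. DESeq2 called 5 genes of propeptide removal and crosslinking, 2 of degradation, 2 keratinocyte, 2 smooth muscle, 1 melanocyte and 1 Schwann cell marker. With a library left out, called genes ranged from 0 to 2 for propeptide removal and crosslinking, 0 to 1 for degradation, 0 to 3 for laminins and related proteins, 0 to 2 for keratinocyte, 0 to 1 for fibroblast, 0 to 1 for smooth muscle, 0 to 1 for melanocyte and 0 to 2 for macrophage markers. With 3 libraries a group and few counts for most upregulated collagens, sizes of change below 1 RPKM are imprecise.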
